A study of Mus musculus with 7 samples.

Results

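The 6 genes listed here as core members of the subcortical maternal complex were examined in mini-oocytes, the oocyte-like cells made from mouse embryonic stem cells (mESCs). They are Nlrp5, Ooep, Khdc3, Tle6, Padi6 and Zbed3, a wider set than the structural core described below. Members were taken by gene symbol, and the 6 were all found among the 55364 genes of the expression table. RNA-seq libraries were made from 4F-mini-oocytes at day 7 (n = 2), 4F-mini-oocytes at day 21 (n = 3) and 8F-mini-oocytes at day 21 (n = 2). The 4F line carries Nobox, Figla, Tbpl2 and Lhx8 as transgenes, and the 8F line carries these together with Stat3, Dynll1, Sub1 and Sohlh1. Both lines come from the female BVSC H18 mESC line, which has a hybrid 129/C57BL6 background. The transgene products are fused to a destabilization domain and are kept from degradation by Shield-1. All 7 libraries come from cells grown with SCF (stem cell factor), the ROCK inhibitor Y-27632 and Shield-1 on laminin, and the fresh medium held no Shield-1 from day 12. Each library at day 7 was made from 1000 pooled mini-oocytes and each at day 21 from 10. Day, pool size and the Shield-1 of the fresh medium therefore change together and cannot be told apart. The cells had no supporting ovarian cells, and the 8F line also carries an Npm2-mCherry reporter in the study. The labels do not say whether replicates came from separate inductions, so p-values measure the spread between these samples, which may be technical.

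The subcortical maternal complex is a protein assembly that growing oocytes build beneath the cell cortex and that the early embryo inherits. NLRP5, OOEP and TLE6 form its structural core, KHDC3 and ZBED3 join it through them, and PADI6 is needed for the cytoplasmic lattices, the fibrous protein stores of the oocyte. Mouse eggs that lack single members are ovulated, yet their embryos stop or falter in early cleavage. The values below are RNA levels, and the proteins were not measured in these files.

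All 6 genes were among the abundant transcripts of the mini-oocytes, and all 6 were higher at day 21 than at day 7. Levels are given as TPM, a read count taken per exon base and brought to the same total in each library, so that genes can be compared within a library. The 6 genes together made up 0.834% and 1.06% of the TPM of the 4F day 7 libraries, 3.40% to 3.72% at day 21 in 4F and 2.58% to 2.64% in 8F. Every day 21 library held all 6 among its 100 most abundant genes, and each day 7 library held 3. The libraries held 9051761 to 17190271 estimated reads on genes, and the least covered value of a member rested on 2512 reads. Because these are bulk samples, fewer cells of a type and less RNA per cell cannot be told apart.

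**Figure D1:**
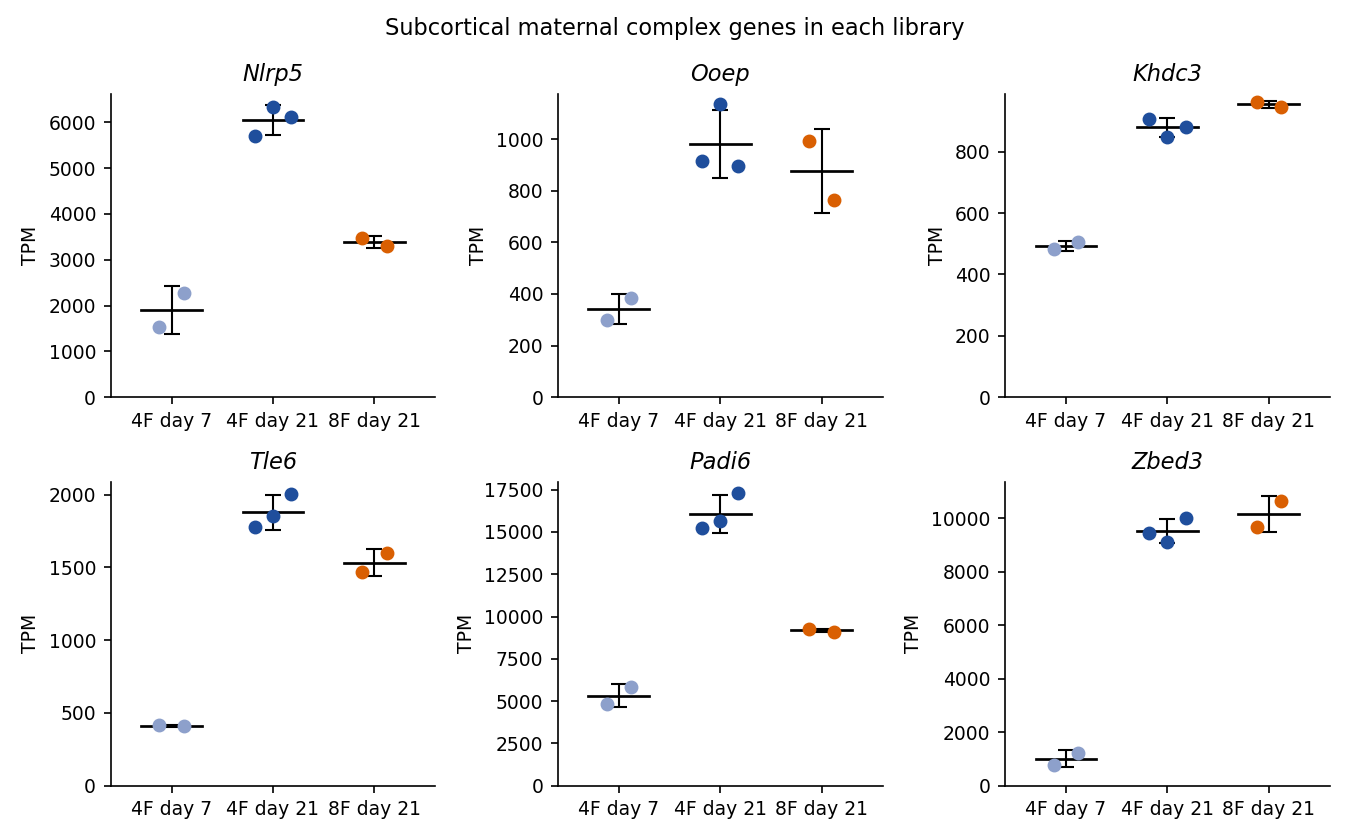
TPM of each of the 6 genes (vertical axis, from 0) in the 3 groups, with 1 point per library, the group mean as a line and the SD as bars. For every gene the day 21 libraries of both lines lie above the day 7 libraries; for Nlrp5, Tle6 and Padi6 the 8F libraries lie below the 4F libraries of the same day.

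Nlrp5 encodes the NLR-family protein also called MATER, a structural subunit of the complex, and lies on the plus strand of chromosome 7 (mm10 positions 23385889 to 23441922). Its level was 1527 and 2264 TPM in the 4F day 7 libraries, 5704, 6338 and 6125 TPM in the 4F day 21 libraries, and 3474 and 3294 TPM in the 8F day 21 libraries. The 3 groups did not overlap, with 4F day 21 highest, 8F between and day 7 lowest. The day 21 mean in 4F was 3.19 times the day 7 mean, and the log2 fold change was 1.70 (SE 0.19; adjusted p = 0.000862, limma with Benjamini-Hochberg adjustment over the 21780 genes tested). In 8F the level was lower than in 4F at day 21 by a log2 fold change of -0.84 (SE 0.19; 95% interval -1.30 to -0.37; adjusted p = 0.0488 in limma). That adjusted p stood just inside the threshold of 0.05, and it passed under 6 of 16 other settings, with values from 0.00259 to 0.343. It did not pass without any 1 of the 5 day 21 libraries, where the log2 fold change stayed between -0.88 and -0.80.

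The 250 bases before the Nlrp5 start (mm10 sequence from the RefSeq GRCm38.p6 table) are shown because the line carries factors that bind DNA in this kind of region: NOBOX and LHX8 are homeobox proteins, and FIGLA and SOHLH1 are basic helix-loop-helix proteins, a class that binds the E-box CANNTG. Capitals mark the E-boxes and the homeobox motif TAATTA.
Nlrp5 (chr7:23385639-23385888, plus strand): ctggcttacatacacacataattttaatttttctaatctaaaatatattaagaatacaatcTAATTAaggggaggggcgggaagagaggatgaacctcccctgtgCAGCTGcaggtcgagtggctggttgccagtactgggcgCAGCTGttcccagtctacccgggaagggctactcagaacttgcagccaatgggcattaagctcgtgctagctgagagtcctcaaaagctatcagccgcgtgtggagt
The window holds 2 E-boxes, both CAGCTG, and 1 TAATTA. A match of letters is a description and shows no binding.

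Ooep encodes a small KH-domain protein, also called FLOPED, that binds NLRP5 and TLE6. It lies on the minus strand of chromosome 9 (78376109 to 78378725). Its level was 299 and 384 TPM at day 7, 915, 1134 and 896 TPM at day 21 in 4F, and 992 and 763 TPM in 8F. Both day 7 libraries were lower than every day 21 library, while the 4F and 8F libraries of day 21 overlapped. The day 21 mean in 4F was 2.88 times the day 7 mean (log2 fold change 1.52, SE 0.18; adjusted p = 0.00106 in limma). The difference between 8F and 4F at day 21 was -0.17 on the log2 scale, with a 95% interval from -0.60 to 0.27 (adjusted p = 0.683 in limma). Its sign turned to 0.024 without 8F replicate 2, the library with the lowest day 21 value. Ooep was the member with the lowest mean at day 7.

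Khdc3 encodes FILIA, another KH-domain protein, which binds NLRP5 and is known for a role in keeping chromosomes stable in the early embryo. It lies on the same chromosome as Ooep, on the plus strand (73101836 to 73104438). Its level was 482 and 505 TPM at day 7, 907, 848 and 882 TPM at day 21 in 4F, and 962 and 946 TPM in 8F. The 3 groups did not overlap, and 8F was the highest. Khdc3 had the smallest rise of the 6, at 1.78 times the day 7 mean in 4F (log2 fold change 0.83, SE 0.09; adjusted p = 0.000766 in limma). The size depended on the scaling, with 0.49 under median of ratios, 0.56 under quantile normalization and 0.30 under voom on estimated reads. Between 8F and 4F at day 21 the log2 difference was 0.12 (95% interval -0.10 to 0.34; adjusted p = 0.531 in limma).

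The value of Khdc3 depends on a second gene model at the same place. Gm20509 is annotated as a protein-coding read-through gene that starts inside Khdc3, on the same strand, and runs into exons of the next gene, Rsl24d1. Of its 1016 exon bases, 790 lie in exons of Khdc3 and the other 226 in exons of Rsl24d1, so that it has no exon base of its own. The authors counted a read that overlaps several genes as a fraction for each, which divides reads over 790 of the 2050 exon bases of Khdc3. Gm20509 had 515 and 590 TPM at day 7, 1381, 1349 and 1468 TPM at day 21 in 4F, and 1765 and 1681 TPM in 8F. Its TPM was 1.07 and 1.17 times that of Khdc3 at day 7, 1.52 to 1.67 times at day 21 in 4F and 1.78 and 1.84 times in 8F, and whether this ratio changed was not tested. Rsl24d1 had 76.0 and 105 TPM at day 7, 85.8, 93.3 and 108 TPM at day 21 in 4F, and 131 and 122 TPM in 8F. From day 7 to day 21 in 4F its log2 fold change was 0.092 (adjusted p = 0.703 in limma), beside 1.34 for Gm20509. What part of the Gm20509 value comes from read-through RNA was not tested. The alternative below moves all reads of Gm20509 to Khdc3, also those on the 226 bases in Rsl24d1 exons, so its sums are upper values. With the reads of Gm20509 given to Khdc3, an alternative chosen after seeing the data, the group means were 767 ± 42.7 TPM (SD, n = 2) at day 7, 1572 ± 49.5 TPM (n = 3) in 4F and 1808 ± 40.5 TPM (n = 2) in 8F. The rise of Khdc3 in 4F was then 1.03 on the log2 scale (adjusted p = 0.000515 in limma, and 0.000465 to 0.0132 over all 17 alternatives), against 0.83 as deposited. Between 8F and 4F at day 21 it was 0.20 (adjusted p = 0.320 in limma, and 0.0215 to 0.857 over the alternatives). Both ways of counting gave the smallest rise of the 6 genes.

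**Figure D2:**
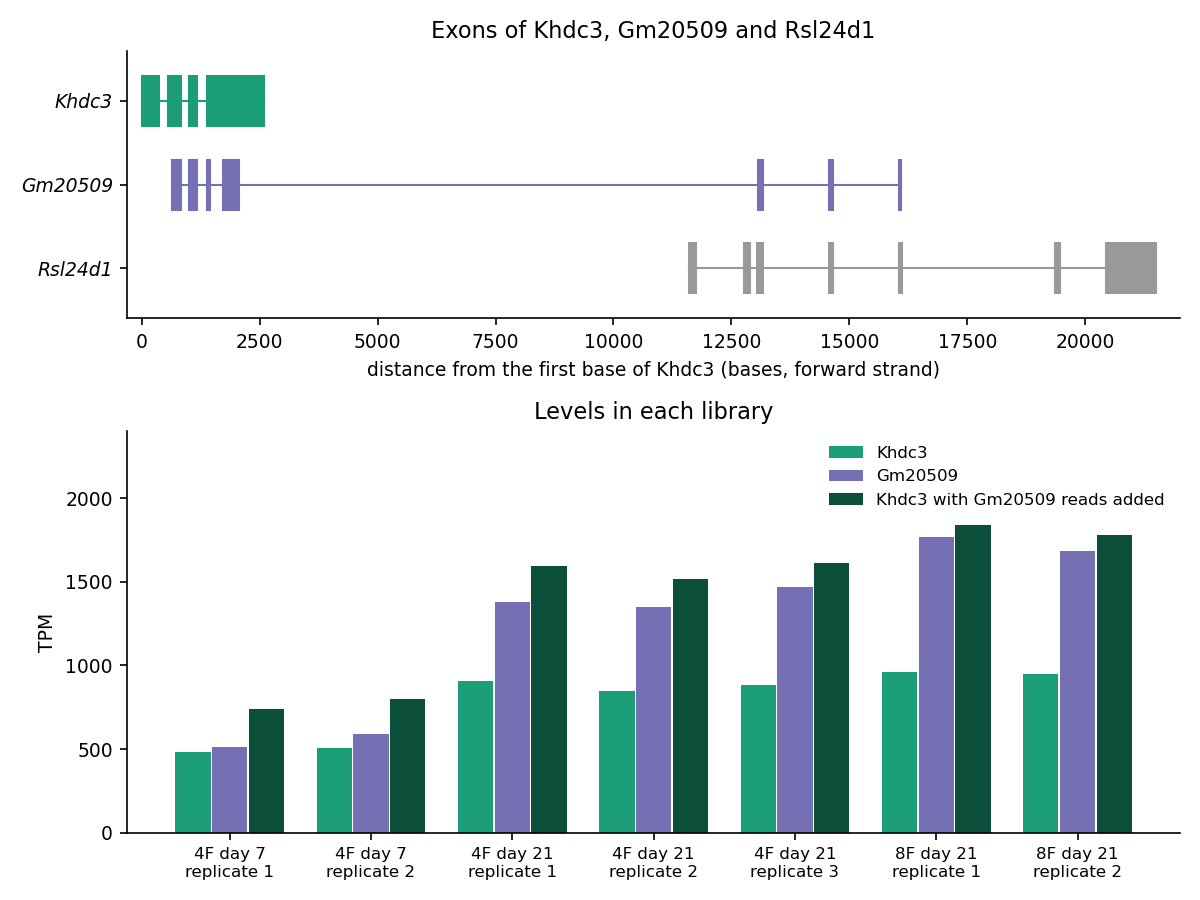
Top, exons (boxes) of Khdc3, Gm20509 and Rsl24d1 by distance in bases from the first base of Khdc3; bottom, TPM in each library of Khdc3, of Gm20509 and of Khdc3 with the reads of Gm20509 added. All exons of Gm20509 coincide with exons of the other genes, and the summed level rises from 737 and 798 TPM at day 7 to between 1516 and 1837 TPM at day 21.

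Tle6 encodes a member of the Groucho family of WD-repeat proteins and bridges the subunits of the core. It lies on the minus strand of chromosome 10 (81590904 to 81601073). Its level was 416 and 408 TPM at day 7, 1775, 1853 and 2008 TPM at day 21 in 4F, and 1467 and 1599 TPM in 8F. No library of one group reached those of another, and the pair at day 7 differed by less than that of any other member. The 4F mean rose 4.56 times to day 21 (log2 fold change 2.18, SE 0.11; adjusted p = 6.07e-05 in limma). The log2 difference of 8F from 4F was -0.29, with a 95% interval from -0.55 to -0.034, and the adjusted p of 0.173 in limma did not pass.

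Padi6 encodes an egg-specific member of the peptidylarginine deiminase family and is tied to the cytoplasmic lattices. It lies on the minus strand of chromosome 4 (140727355 to 140742643). Its level was 4827 and 5815 TPM at day 7, 15209, 15625 and 17317 TPM at day 21 in 4F, and 9256 and 9100 TPM in 8F. It was the second most abundant of all genes in each 4F day 21 library, the 6th in both 8F libraries and the 13th and 16th at day 7. The 4F mean rose 3.02 times (log2 fold change 1.60, SE 0.19; adjusted p = 0.00109 in limma). Its log2 fold change was 2.56 under quantile normalization and 1.04 under voom on estimated reads. At day 21 the 4F mean was 1.75 times the 8F mean, and the groups did not overlap. The log2 difference of 8F from 4F was -0.80 (SE 0.19; 95% interval -1.27 to -0.34), and the adjusted p was 0.0543 in limma, just outside the threshold. Under the 16 other settings its adjusted p ran from 0.000722 to 0.476, and 3 of them passed, so that Nlrp5 and Padi6 stand on different sides of the threshold with nearly equal differences.

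Zbed3 encodes a BED-type zinc finger protein that joins the complex. It lies on the plus strand of chromosome 13 (95323612 to 95337841). Its level was 788 and 1226 TPM at day 7, 9469, 9123 and 10009 TPM at day 21 in 4F, and 9685 and 10654 TPM in 8F. Every day 21 library was far above day 7, and the 4F and 8F libraries of day 21 overlapped. Zbed3 had the greatest rise of the 6, at 9.47 times in 4F (log2 fold change 3.28, SE 0.22; adjusted p = 0.000123 in limma), which put it 474th of 21780 genes by fold change. The log2 difference of 8F from 4F was 0.093 (95% interval -0.43 to 0.61; adjusted p = 0.871 in limma), and its sign turned to -0.052 with quantile normalization. The 250 bases before the starts of Padi6 and Zbed3 are shown for the most abundant member and for the one that rose most. Capitals mark E-boxes (CANNTG), of which Padi6 has 2 and Zbed3 3, and neither window holds a searched homeobox motif.
Padi6 (chr4:140742644-140742893, minus strand): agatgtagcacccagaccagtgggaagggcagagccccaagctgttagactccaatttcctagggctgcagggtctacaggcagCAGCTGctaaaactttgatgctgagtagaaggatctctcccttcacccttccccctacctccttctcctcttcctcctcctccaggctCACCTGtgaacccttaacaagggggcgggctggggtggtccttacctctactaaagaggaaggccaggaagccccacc
Zbed3 (chr13:95323355-95323604, plus strand): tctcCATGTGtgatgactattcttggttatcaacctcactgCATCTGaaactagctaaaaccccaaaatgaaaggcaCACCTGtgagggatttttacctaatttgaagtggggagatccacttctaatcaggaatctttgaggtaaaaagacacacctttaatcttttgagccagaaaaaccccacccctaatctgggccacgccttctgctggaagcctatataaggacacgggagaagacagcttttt

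The E-box was found in the windows of all 6 members, on a motif that reads the same on both strands, and 66.2% of the 32851 windows of the table hold it. TAATTA was found in 1 member (Nlrp5) and 4.84% of windows, TAATTG in 1 member (Ooep) and 7.17%, TGATTG in 1 member (Tle6, with 2 matches) and 12.7%, and TATAAA in none of the 6 and 12.4%. In Ooep, Khdc3 and Padi6 an E-box starts at the same place, 78 bases before the RefSeq start, which was noticed after the matches were seen. Of all windows, 0.484% hold an E-box starting at that base. That base was picked from the members' own matches, so this share is no background for a coincidence at any base. The stretch from 90 to 61 bases before the start is shown for these 3 genes, with the E-box in capitals.
Ooep (chr9:78378649-78378678, minus strand): acccagcctaccCACTTGcgcggtgcgcgc
Khdc3 (chr9:73102308-73102337, plus strand): tctcccccacccCAGGTGcagccagtgagg
Padi6 (chr4:140742704-140742733, minus strand): ctcctccaggctCACCTGtgaacccttaac
The middle bases of the box differ among the 3 genes. The RefSeq start used for Ooep lies 137 bases inside the GENCODE gene, that of Khdc3 562 bases inside it, and that of Padi6 at its first base, so that the shared distance holds only for the RefSeq starts.

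In 4F-mini-oocytes from day 7 to day 21, 6 of 6 members passed the test as higher, where 25.3% of the 21780 genes tested were called higher, 15.3% lower and 40.6% in either direction. The question of this comparison is how far the maternal programme moves between the time the cells become round and the end of induction. The day 7 and day 21 libraries did not overlap for any of the 6, against 33.8% of genes that lay wholly higher at day 21 and 22.9% that lay wholly lower. The members' median log2 fold change was 1.65, beside a median of 0.17 over all genes tested. All 6 passed in every alternative setting tried, while voom on estimated reads lowered Nlrp5 to 1.12 and Ooep to 0.97. With other scalings the median of all genes moved to -0.060 (median of ratios), 0.040 (quantile normalization) or -0.32 (voom on estimated reads), and that of the members was 1.31, 1.93 or 1.08. Of the genes called in this comparison, 62.3% were higher in the main fit, against 48.6%, 52.0% and 37.7% with these scalings.

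**Figure D3:**
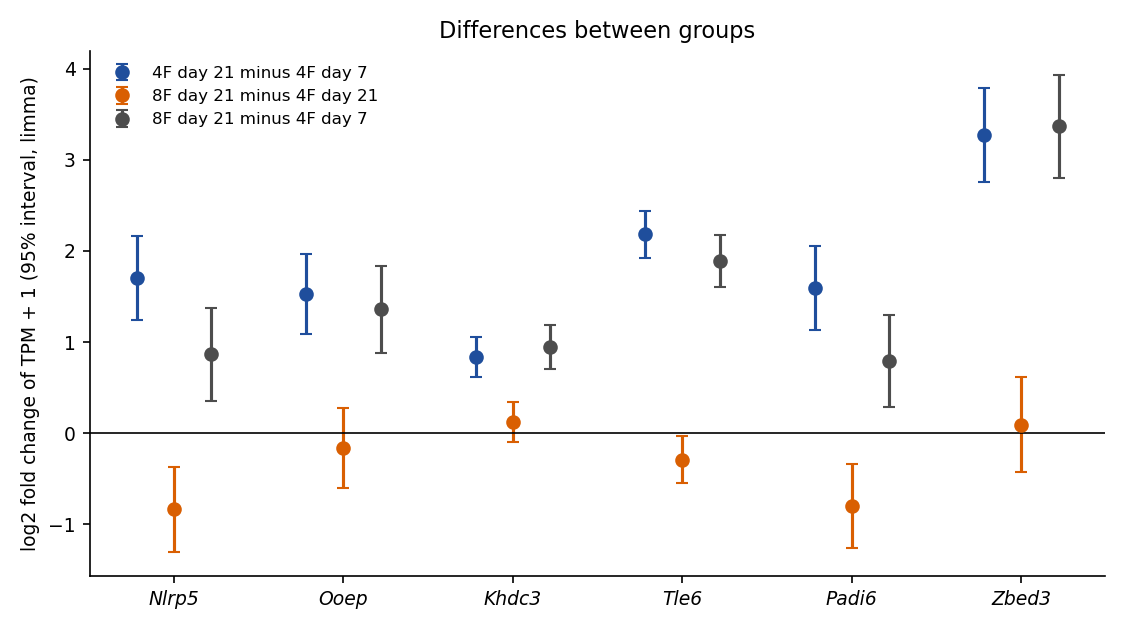
log2 fold change of TPM + 1 (vertical axis) of the 6 genes in the 3 comparisons, with 95% intervals from limma; the line marks no difference. The 4F day 21 minus day 7 values run from 0.83 (Khdc3) to 3.28 (Zbed3), and the 8F minus 4F values at day 21 from -0.84 (Nlrp5) to 0.12 (Khdc3).

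At day 21, 1 of 6 members (Nlrp5, lower) differed between 8F- and 4F-mini-oocytes, where 4.41% of genes were called lower, 3.95% higher and 8.37% in either direction. The comparison asks what the 4 further factors bring at the end of induction. Libraries of the lines did not overlap for Nlrp5, Tle6 and Padi6, all lower in 8F, against 19.8% of genes tested. They did not overlap for Khdc3 either, which was higher in 8F, against 24.1% of genes. The median over members was -0.23 on the log2 scale and that over all genes 0.056. Voom on estimated reads moved the median of all genes to 0.26 and the share of higher calls from 47.3% to 62.2%. Under voom 4 members passed, of which Nlrp5 and Padi6 were lower, Khdc3 (0.26) and Zbed3 (0.24) higher. Relative to its median of all genes, these last values were near 0. The 4F and 8F libraries come from different cell lines, and the study used several sequencing instruments, with different read lengths, without naming the libraries run on each. The deposited 8F values are also written with more decimals than the 4F values. Whether either moves with the 8F minus 4F differences was not tested.

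Against 4F-mini-oocytes at day 7, the 8F-mini-oocytes of day 21 were higher in 6 of 6 members, where 24.2% of genes were called higher, 13.0% lower and 37.2% in either direction. This comparison shares its day 7 libraries with the first and its 8F libraries with the second, so that it holds no separate evidence. The log2 fold changes were 3.37 for Zbed3, 1.89 for Tle6, 1.36 for Ooep, 0.95 for Khdc3, 0.86 for Nlrp5 and 0.79 for Padi6 (adjusted p from 0.000177 to 0.0263 in limma). All 6 lay wholly above day 7, against 43.9% of genes wholly above and 28.4% wholly below. The members' median was 1.15, beside 0.24 over all genes. The calls of Nlrp5 and Padi6 were the least firm, since they passed in 9 and 7 of 16 other settings. Nlrp5 did not pass without 4F day 7 replicate 1 (log2 fold change 0.58) or without either 8F library, and Padi6 did not pass without either day 7 library, 4F day 21 replicate 2 or either 8F library (0.66 to 0.93). Median of ratios lowered the median of all genes to -0.0018 and the share of higher calls from 65.1% to 51.5%, and with it Nlrp5 stood at 0.54 and Padi6 at 0.47.

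The order of the 6 transcripts changed between the groups. At day 7 the order by mean was Padi6 (5321 ± 699 TPM, SD, n = 2), Nlrp5 (1896 ± 521), Zbed3 (1007 ± 310), Khdc3 (494 ± 16.6), Tle6 (412 ± 5.87) and Ooep (341 ± 59.5), and no neighbours in it overlapped, although the means of Tle6 and Ooep lay little more than 1 SD of Ooep apart. At day 21 in 4F it was Padi6 (16051 ± 1117 TPM, SD, n = 3), Zbed3 (9534 ± 447), Nlrp5 (6056 ± 323), Tle6 (1879 ± 118), Ooep (982 ± 133) and Khdc3 (879 ± 29.9), where the last pair overlapped. In 8F it was Zbed3 (10170 ± 685 TPM, SD, n = 2), Padi6 (9178 ± 111), Nlrp5 (3384 ± 128), Tle6 (1533 ± 93.4), Khdc3 (954 ± 11.1) and Ooep (877 ± 162), where again the last pair overlapped. These places of Khdc3 hold for its TPM as deposited. With the reads of Gm20509 added, Khdc3 (737 and 798 TPM) overlapped Zbed3 at day 7, stood between Tle6 and Ooep in 4F at day 21 (1516 to 1610 TPM) and stood above Tle6 in 8F (1779 and 1837 TPM). Zbed3 stood below Nlrp5 at day 7, above it at day 21 and above Padi6 in 8F.

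**Figure D4:**
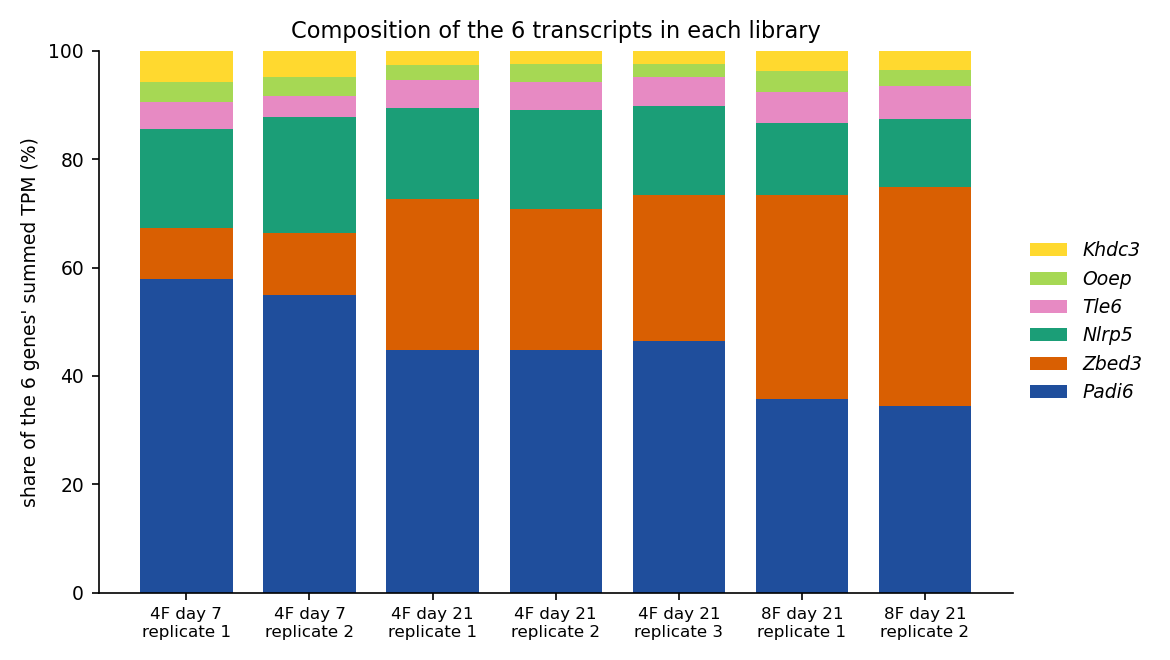
Share (%) of each gene in the summed TPM of the 6 genes, 1 bar per library. The share of Zbed3 goes from 9.45% and 11.6% at day 7 to between 26.1% and 27.9% in 4F and to 37.5% and 40.4% in 8F, while that of Padi6 goes from 57.9% and 54.9% to between 34.5% and 35.8% in 8F.

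Taken as shares of the 6, Padi6 held a mean of 56.4% at day 7, 45.3% in 4F at day 21 and 35.2% in 8F, and Zbed3 held 10.5%, 27.0% and 39.0%. The ratio of Padi6 to Zbed3 within a library, which no single scaling factor of a library can move, was 4.74 and 6.12 at day 7, 1.61 to 1.73 in 4F at day 21 and 0.854 and 0.956 in 8F. By contrast, the ratio of Nlrp5 to Padi6 stayed between 0.316 and 0.406 in all 7 libraries, and the ranges of the 3 groups overlapped. Across the 7 libraries, which share their grouping, Pearson's r of log2(TPM + 1) between members ran from 0.79 (Nlrp5 with Khdc3) to 0.99 (Nlrp5 with Padi6, and Khdc3 with Zbed3).

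For each member the most similar genes were sought among 8510 other protein-coding genes whose mean was 10 TPM or more, by r over the 7 libraries. They were Elp6, Zfand3 and Tmem38a for Nlrp5, Pcbd2, Cops3 and Vamp9 for Ooep, Rhbdd1, Smagp and Shisa8 for Khdc3, Sh3rf1, Ppp2r2d and Kif2c for Tle6, Psma4, Exosc9 and Snrnp27 for Padi6, and Ccno, Cry1 and Tet3 for Zbed3. Their r with the member was 0.99 to 1.00, yet between 977 and 2414 of the 8510 genes had r above 0.9 with a given member. Tet3, the dioxygenase that oxidizes methylated cytosine in the zygote, had 35.5 and 66.3 TPM at day 7, 483 to 532 TPM at day 21 in 4F and 484 and 552 TPM in 8F. Elp6, a subunit of the Elongator complex, had 6.21 and 9.14 TPM at day 7, 18.2 to 19.7 TPM in 4F at day 21 and 12.6 and 11.7 TPM in 8F.

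Genes whose proteins are reported with the complex or its lattices rose as well in most cases. Of 11 such genes, 9 passed as higher in 4F at day 21 than at day 7, none as lower, where 25.3% of all genes tested were called higher, and Dppa3 and Skp1a did not pass (log2 fold changes -0.0085 and 0.32). The list's median was 1.29. Calls of this list and of those that follow come from the main fit and were not checked with the other scalings. Nlrp2 and Nlrp14, NLR-family genes of the oocyte, had log2 fold changes of 5.77 and 3.81. Nlrp2 went from 0.944 and 11.5 TPM to between 256 and 278 TPM in 4F, and the ratio between its day 7 libraries was greater than that of any core member. Dnmt1, the maintenance DNA methyltransferase, had 346 and 527 TPM at day 7, 4894 to 5905 TPM in 4F at day 21 and 2947 and 3393 TPM in 8F (log2 fold change from day 7 to day 21 in 4F 3.65, adjusted p = 8.21e-05 in limma). Uhrf1, its partner at replicating DNA, had 637 and 730 TPM at day 7 and 1553 to 1775 TPM in 4F at day 21 (1.29, adjusted p = 0.000369 in limma). Dppa3, the maternal factor also called STELLA, was already at 7125 and 7804 TPM at day 7, more than any core member, and stayed between 6292 and 7689 TPM at day 21. Between the lines at day 21, 1 of the 11 passed, where 8.37% of all genes did, Ywhae, a 14-3-3 gene, which was lower in 8F (log2 fold change -0.79, adjusted p = 0.0116 in limma). From 4F at day 7 to 8F at day 21, 8 of 11 passed as higher, where 24.2% of all genes did, and none as lower.

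**Figure D5:**
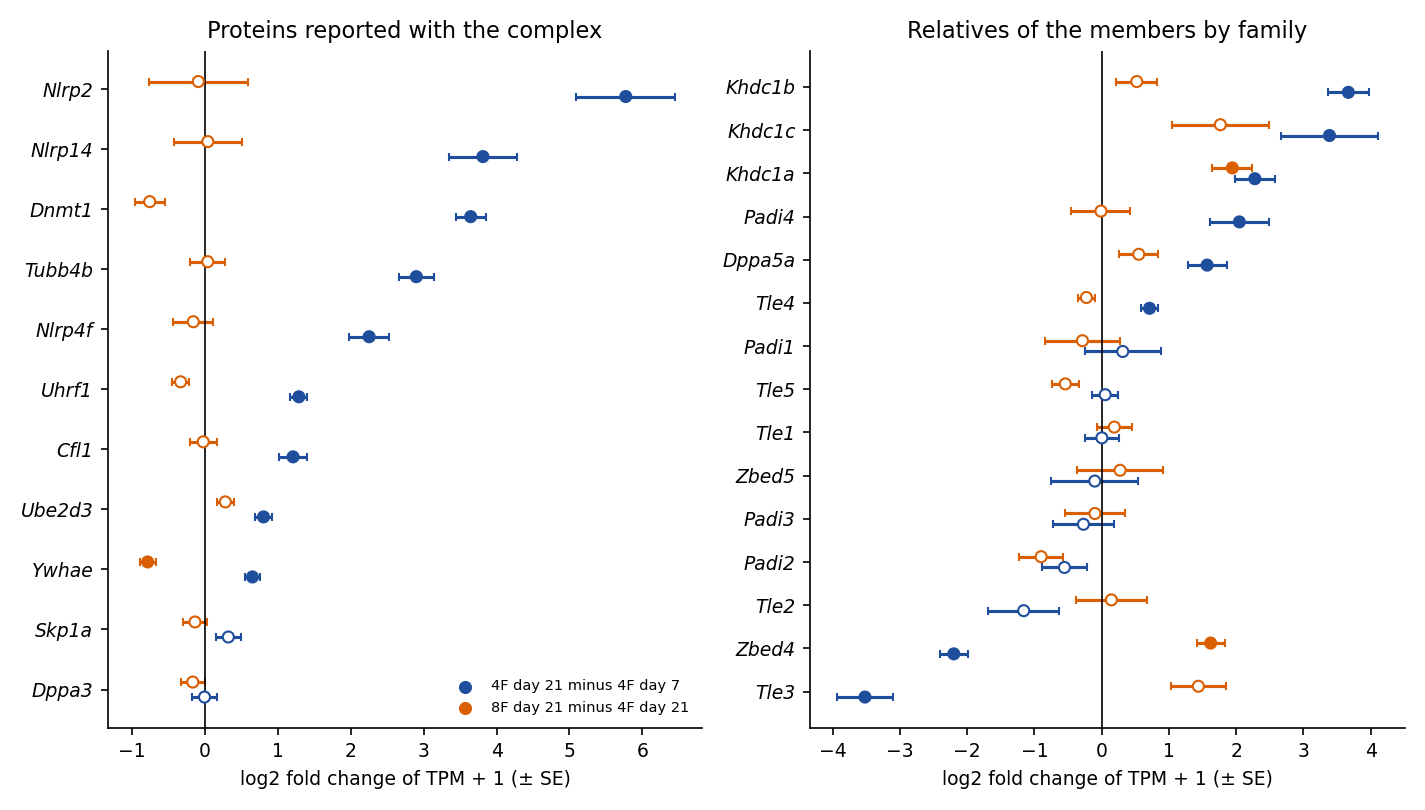
log2 fold change of TPM + 1 (horizontal axis, ± SE) of genes whose proteins are reported with the complex (left) and of relatives of the members by family (right), from day 7 to day 21 in 4F and between 8F and 4F at day 21. Filled points passed the adjusted threshold of 0.05 and open points did not; 9 of the 11 on the left and 8 of the 15 on the right passed from day 7 to day 21.

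Relatives of the members by family were compared in the same way. Of 17 genes on that list, 16 were in the table and 15 had enough signal to be tested. From day 7 to day 21 in 4F, 6 were higher, 2 were lower and 7 did not pass, with a median of 0.053. Over all genes tested 25.3% were higher and 15.3% lower, so that the share of relatives that were lower was near that of all genes. Those that were higher were Dppa5a, Khdc1a, Khdc1b and Khdc1c, which like Ooep and Khdc3 encode KH-domain proteins, Padi4 and Tle4. Khdc1b had 69.3 and 152 TPM at day 7, 1215 to 1390 TPM in 4F at day 21 and 2084 and 1724 TPM in 8F, so that it exceeded Ooep and, as deposited, Khdc3 at day 21. With all reads of Gm20509 added, an upper value, Khdc3 was above Khdc1b in the 3 libraries of 4F at day 21 and in 8F replicate 2. In 8F replicate 2 the values lay close together, at 1779 and 1724 TPM. Khdc1a went from 14.4 and 31.5 TPM to between 103 and 115 TPM in 4F and to 451 and 383 TPM in 8F, and the difference between the lines passed (log2 fold change 1.94, adjusted p = 0.0152 in limma). The Khdc1 genes are close copies of each other, and the study kept only uniquely mapped reads, so their levels are uncertain. Padi1, Padi2, Padi3 and Padi4, the deiminases of other tissues, had group means of at most 14.9 TPM, beside at least 4827 TPM of Padi6 in each library. Tle3 and Zbed4 were lower at day 21 in 4F (log2 fold changes -3.52 and -2.20), opposite to Tle6 and Zbed3. Zbed4 was higher in 8F than in 4F (1.62, adjusted p = 0.0100 in limma). From 4F at day 7 to 8F at day 21, 6 of the 15 were higher and 2, Padi2 and Tle3, lower, where 24.2% and 13.0% of all genes were.

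The labelled cell type and the induced factors were checked in the same libraries. Of 10 markers of growing oocytes, 10 were higher at day 21 than at day 7 in 4F, where 25.3% of all genes tested were. Their median log2 fold change was 2.51, beside 0.17 over all genes tested. Their summed level was 4150 and 5176 TPM at day 7, 22115 to 25230 TPM in 4F at day 21 and 21073 and 21320 TPM in 8F. Between the lines, Bmp15 was higher in 8F (log2 fold change 0.59, adjusted p = 0.0460 in limma). Ddx4 (-0.90, adjusted p = 0.0198 in limma) and Npm2 (-1.01, adjusted p = 0.00676 in limma) were lower. Over all genes tested between the lines, 3.95% were called higher and 4.41% lower. Of the 8 factors, 7 were higher at day 21 in 4F, where 25.3% of all genes tested were, with Dynll1 not passing. These calls hold for the main fit and were not checked with the other scalings. With voom on estimated reads the median of all genes moved from 0.17 to -0.32. Values in 4F may include transgene RNA for Nobox, Figla, Tbpl2 and Lhx8, and in 8F for all 8. Figla and Lhx8 were lower in 8F than in 4F (log2 fold changes -1.23 and -1.21), and Sohlh1, which the 4F line does not carry, was higher (1.28). In the day 7 libraries Sohlh1 was listed at 0, and it stood at 42.7 to 60.9 TPM in 4F at day 21 and at 117 and 143 TPM in 8F.

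Marker lists named for other cells gave mixed values. The 8 genes of trophoblast and simple epithelium summed to 1160 and 1682 TPM at day 7, 54.0 to 148 TPM in 4F at day 21 and 38.3 and 46.7 TPM in 8F. In 4F, Krt8, Krt18, Krt19 and Gata3 passed as lower at day 21 and 2 of 6 tested did not, where 15.3% of all genes were called lower. Cdx2 and Elf5, at 0 in both day 7 libraries, had too little signal to test. The 8 pluripotency markers summed to 85.8 and 96.9 TPM at day 7, 243 to 360 TPM in 4F at day 21 and 137 and 178 TPM in 8F. Of 6 tested, Pou5f1 and Esrrb were higher at day 21 in 4F, Zfp42 was lower and 3 did not pass. Among all genes 25.3% were called higher and 15.3% lower. Pou5f1 went from 24.4 and 30.1 TPM at day 7 to between 154 and 267 TPM in 4F at day 21, where it exceeded every other gene of the list. Nanog and Tdgf1 stayed under 1 TPM in every library. The 8 granulosa markers summed to at most 4.08 TPM in every library, and Amh, Amhr2, Inha and Fst stayed under 1 TPM. What part the keratin-rich signal of day 7 has in the rise of the 6 genes was not tested.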

How the data were processed

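RNA-seq libraries were prepared by the authors with the SMART-seq Stranded Kit. Per the labels and the study's methods, reads passed through Trim Galore and HISAT2 (mm10), bedtools took out those from ribosomal RNA, and the authors kept unique alignments and counted them on GENCODE genes with featureCounts, a read over several genes being divided among them. No strand option is stated, and no annotated gene overlaps a member on the opposite strand. The authors deposited TPM per gene and library, a share of a fixed total, so that a few abundant genes can move all others. The study tested counts with edgeR, and the counts were not used here.

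TPM was analysed as log2(TPM + 1), so that fold changes of low genes are understated. Of 55364 genes, the 21780 that reached 1 TPM in 2 or more libraries entered a limma fit (version 3.58.1, R 4.3.3) of the 7 libraries in 3 groups without a block, with a trended eBayes, two-sided tests and Benjamini-Hochberg adjustment over the genes tested at FDR 0.05. Reads were estimated from TPM and the exon lengths of GENCODE vM21 (mm10), to which 98.1% of gene IDs matched with version. Of the low values, 78.0% to 85.2% came out within 0.02 of a whole read, and 3 reads on 1 kb corresponded to 0.515 to 0.764 TPM. Estimated reads served as depth and in a voom alternative. Promoter sequences come from RefSeq (GRCm38.p6), where all 6 members matched, and the window nearest to the GENCODE start was used for genes with several.

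Members and gene lists were chosen with earlier results of these data known. Named genes were the 6 members, 7 gene lists, the 3 genes most like each member by Pearson's r and the nearest protein-coding gene on each side of each member. Alternatives changed the pseudocount, the filter, the scaling, the groups fitted, the replicate block, the model and the libraries included. The E-box position shared by 3 members and the Gm20509 alternative were chosen after seeing the data.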

Additional observations from a re-analysis of the deposited data

How the results depend on the processing

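From day 7 to day 21 in 4F, all 6 members passed under every alternative, with log2 fold changes of 0.30 to 1.03 for Khdc3 and 1.04 to 2.56 for Padi6 over them. Between 8F and 4F at day 21 the number of members past the threshold, 1 in the main fit, was 0 with pseudocounts of 0.1 and 5, no filter, median of ratios and the replicate block, 2 with a filter of 5 TPM and with quantile normalization, 4 with voom, and 0 to 1 when single libraries were left out. Nlrp5 did not pass with a pseudocount of 0.1 (-0.84) or 5 (-0.84), no filter (-0.84), median of ratios (-0.82) or the replicate block (-0.83), nor without any 1 of the day 21 libraries (range over all libraries left out -0.88 to -0.80). Padi6 passed with the 5 TPM filter (-0.80), quantile normalization (-1.41) and voom (-0.66). Voom also called Khdc3 (0.26) and Zbed3 (0.24). Zbed3 turned to -0.052 with quantile normalization, and Ooep, from -0.36 to 0.024 when single libraries were left out, turned to 0.024 without 8F replicate 2. From 4F day 7 to 8F day 21, Nlrp5 did not pass with no filter (0.86), median of ratios (0.54), only the groups compared (0.86) or voom (0.43), and ran from 0.58 to 1.15 when single libraries were left out. Padi6 did not pass with no filter (0.79), median of ratios (0.47), only the groups compared (0.79) or the replicate block (0.79), and ran from 0.66 to 0.93. The cause of these changes was not tested. Genes called between 8F and 4F, 1822 in the main fit, numbered 306 to 2221 when single libraries were left out, with 306 and 357 without 8F replicate 1 and 2, 924 to 1021 without a 4F day 21 library and 2203 and 2221 without a day 7 library. Genes called from 4F day 7 to 8F, 8103 in the main fit, numbered 4089 to 8281, with 4089 and 4215 without an 8F library. Groups left with 1 library were assumed to vary like the others.

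The labels do not say that equal replicate numbers mark samples made together, so the numbers were not taken to pair the samples. Deviations from group means correlated between -0.037 and 0.011 for same-numbered libraries, and between -0.021 and 0.037 for differently numbered ones. In a group of 2 libraries the deviations mirror each other, so these values cannot decide on pairing. With the replicate number as a block, 164 genes were called between 8F and 4F, in place of 1822. Only 4F day 21 has a replicate 3, so the block fits that library by itself. The members' 8F minus 4F values were then those found without it, such as -0.83 for Nlrp5 and -0.75 for Padi6. Without that library and without a block, 1021 genes were called. Groups of 2 and 3 libraries, the pool sizes and Shield-1 supply that changed with day, and the division of reads between overlapping genes limit what these values can show.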

Other observations

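Genes next to the members gave mixed values. Their calls come from the main fit and were not checked with the other scalings. Nlrp4e, which lies 23611 bases before Nlrp5 on mm10, had 14.6 and 11.0 TPM at day 7, 155 to 177 TPM in 4F at day 21 and 202 and 207 TPM in 8F (log2 fold change from day 7 to day 21 in 4F 3.63, adjusted p = 3.79e-05 in limma). Vmn1r167, on the other side of Nlrp5, was listed at 0 in all 7 libraries. Dppa5a, 7931 bases from Ooep and on the same strand, had 164 and 301 TPM at day 7, 548 to 832 TPM in 4F at day 21 and 1076 and 875 TPM in 8F. Ddx43, the other neighbour of Ooep, had 17.6 and 8.16 TPM at day 7 and 6.48 to 7.16 TPM in 4F at day 21, and was lower in 8F at day 21 than in 4F at day 7 (log2 fold change -1.60, adjusted p = 0.0240 in limma). Padi4, 3221 bases from Padi6, had 0.211 and 1.23 TPM at day 7 and 4.22 to 7.25 TPM in 4F at day 21. Rcc2, the other neighbour of Padi6, a chromatin condensation regulator, went from 100.1 and 103 TPM to between 155 and 200 TPM (log2 fold change 0.84). Tle2 ends 58 bases from Tle6 on the opposite strand and had group means of at most 4.94 TPM. From day 7 to day 21 in 4F, neither neighbour of Zbed3 passed: Pde8b had a log2 fold change of 0.34 and Aggf1 of 0.56 (adjusted p = 0.535 and 0.0658 in limma). Beside Khdc3, Rab27a passed as higher (0.77, adjusted p = 0.0145 in limma) and Rsl24d1 did not pass (0.092). BC025920, the other neighbour of Tle6, did not pass (-0.40).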
